A study of Homo sapiens with 6 samples.

Results

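The D-type cyclins, the kinases CDK4 and CDK6, their inhibitors and the pocket protein RB1 were followed in PANC-1, an established human line derived from a pancreatic ductal carcinoma. Poly(A) RNA was sequenced from 3 libraries of cells given siRNA against SUV420H2, named knockdown in the labels, and 3 control libraries. SUV420H2, now named KMT5C, methylates lysine 20 of histone H4. The labels name no drug, dose, time after transfection or batch, and do not say what the control cells were given. They also do not say whether each library of a group had its own culture, and p-values then reflect the spread between these samples alone, possibly a technical one. The 10 genes were CCND1, CCND2, CCND3, CDK4, CDK6, CDKN1B, CDKN1C, CDKN2A, CDKN2B and RB1, found by gene ID among the 30727 genes listed. They were chosen by their role in G1, with earlier results of these data known, and the rule used no measured value. The files list all 10, of which 8 passed the filter on low counts and 2 (CDKN2A and CDKN2B) did not.

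These genes form the gate between growth signals and DNA synthesis in the G1 phase of the cell cycle. D-type cyclins bind and activate CDK4 or CDK6, which phosphorylate the retinoblastoma protein RB1 and so release the E2F transcription factors that switch on S phase genes. The INK4 inhibitors (p16 from CDKN2A, p15 from CDKN2B) bind CDK4 and CDK6 themselves, and the CIP/KIP inhibitors (p27 from CDKN1B, p57 from CDKN1C) bind complexes of cyclin and kinase. Loss of CDKN2A is a common lesion of pancreatic ductal carcinoma, and PANC-1 is known for a homozygous deletion of that gene.

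The promoters of 3 members are shown because their transcripts moved in opposite directions: CDK4 and CDKN1B were lower in the knockdown and CDK6 was higher. Each is the stretch of 250 bases before an annotated start, read 5′ to 3′ on the strand of the gene, from RefSeq on GRCh38.p14. The CDK4 window is chr12:57752311-57752560 (minus strand), the CDK6 window chr7:92836574-92836823 (minus strand) and the CDKN1B window chr12:12717118-12717367 (plus strand). Capitals mark CACGTG, the E-box core, which reads the same on both strands.
CDK4: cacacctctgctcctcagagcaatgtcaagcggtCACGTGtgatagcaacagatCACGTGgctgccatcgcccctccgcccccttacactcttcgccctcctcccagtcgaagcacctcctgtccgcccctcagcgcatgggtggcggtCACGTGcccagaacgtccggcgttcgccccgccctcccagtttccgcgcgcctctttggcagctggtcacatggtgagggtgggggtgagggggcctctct
CDK6: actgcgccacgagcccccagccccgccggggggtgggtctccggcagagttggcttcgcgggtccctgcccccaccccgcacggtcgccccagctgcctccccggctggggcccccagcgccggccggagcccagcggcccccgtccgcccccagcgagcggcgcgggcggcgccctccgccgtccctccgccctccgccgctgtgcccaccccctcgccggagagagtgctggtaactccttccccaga
CDKN1B: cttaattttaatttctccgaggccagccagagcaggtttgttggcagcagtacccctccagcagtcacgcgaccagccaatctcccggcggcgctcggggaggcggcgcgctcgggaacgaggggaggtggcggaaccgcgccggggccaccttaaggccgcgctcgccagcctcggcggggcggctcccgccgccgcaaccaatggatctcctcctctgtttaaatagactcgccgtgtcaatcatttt
The CDK4 window holds 3 such sites, whose first bases lie at -216, -196 and -101 from the start. Of 35116 promoter windows of the same length, 6.34% hold at least 1 CACGTG and 28 hold 3 or more. The windows of CDK6 and CDKN1B hold none, which says only that these letters are not in these windows. The GC box GGGCGG, searched on both strands, occurs 3 times in the CDK4 window, 3 times in the CDK6 window and 1 time in the CDKN1B window, and in 42.6% of all windows. CDK6 has a second annotated start, at 92833959, whose window is not printed and holds 0 GC boxes and 0 CACGTG. The table gives 11 windows for 7 of the 10 members. Motif words of E2F, AP-1, CRE and the TATA box were also searched, and occur in none of these windows.

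The control libraries held 20863594 to 25931995 counted reads, and the knockdown libraries 27007534 to 38022772. KMT5C, the targeted gene, went from 9.81 ± 2.72 to 6.0 ± 0.130 CPM (SD, n = 3 each), which is -0.72 on the log2 scale (SE 0.163, adjusted p = 0.00227 in edgeR). This fall, to 60.6% of the control level, did not pass against a 1.5-fold change (edgeR adjusted p = 0.305). CPM is counts per 1000000 reads after TMM scaling, and fold changes are knockdown over control. Control replicate 3 stood apart, with a chi-square per degree of freedom of 11.3 and 13.6 against the other controls, which differed from each other by 1.55; without it the log2 fold change of KMT5C was -0.50. Of 7 duct markers, KRT8, KRT18, KRT19 and SOX9 had group means from 177 CPM to 2590 CPM, while CFTR, a chloride channel of duct cells, had 4 reads in the controls and 0 in the knockdown. KRT7 and EPCAM passed the filter, and their levels are given only within the list sum below. Of the 6 duct markers tested, 4 rose (KRT7, KRT8, KRT18 and EPCAM) and 2 fell (KRT19 and SOX9), and the list summed to between 2614 and 3175 CPM in the controls and to between 5850 and 6071 CPM in the knockdown. Of 6 neuron markers tested, 2 rose (SNAP25 and SLC17A7), 3 fell (TUBB3, MAP2 and SYT1) and 1 was not called, and the list summed to between 231 and 273 CPM in the controls and to between 129 and 137 CPM in the knockdown. Fibroblast and endothelial markers summed to between 1.98 and 2.23 CPM in the controls and between 7.83 and 8.32 CPM in the knockdown, nearly all of it PDGFRB. Astrocyte markers summed to at most 3.13 CPM with AQP4 at 0 reads, and microglia and leukocyte markers to at most 3.46 CPM. At an adjusted p under 0.05, edgeR called 100% of the duct markers tested and 83.3% of the neuron markers tested. Of all 15190 genes tested it called 67.3%, 33.1% as higher and 34.2% as lower. The part of these markers in the results below was not tested.

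Of the 8 members tested, 4 rose (CCND1, CCND2, CCND3 and CDK6), 2 fell (CDK4 and CDKN1B) and 2 were not called (CDKN1C and RB1) in edgeR's quasi-likelihood test at an adjusted p under 0.05. That test called 67.3% of all 15190 genes, 33.1% as higher and 34.2% as lower, so the share of members called lies near the background. The median log2 fold change of the 8 was 0.27, beside -0.01 over all genes tested. The CPM of the groups did not overlap for 6 of the 8, against 71.3% of all genes tested. Against a 1.5-fold change, which 19.7% of genes passed, only CCND2, CCND3 and CDK6 among the members passed. In bulk RNA, fewer cells of a cycle phase and less RNA per cell cannot be told apart.

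**Figure D1:**
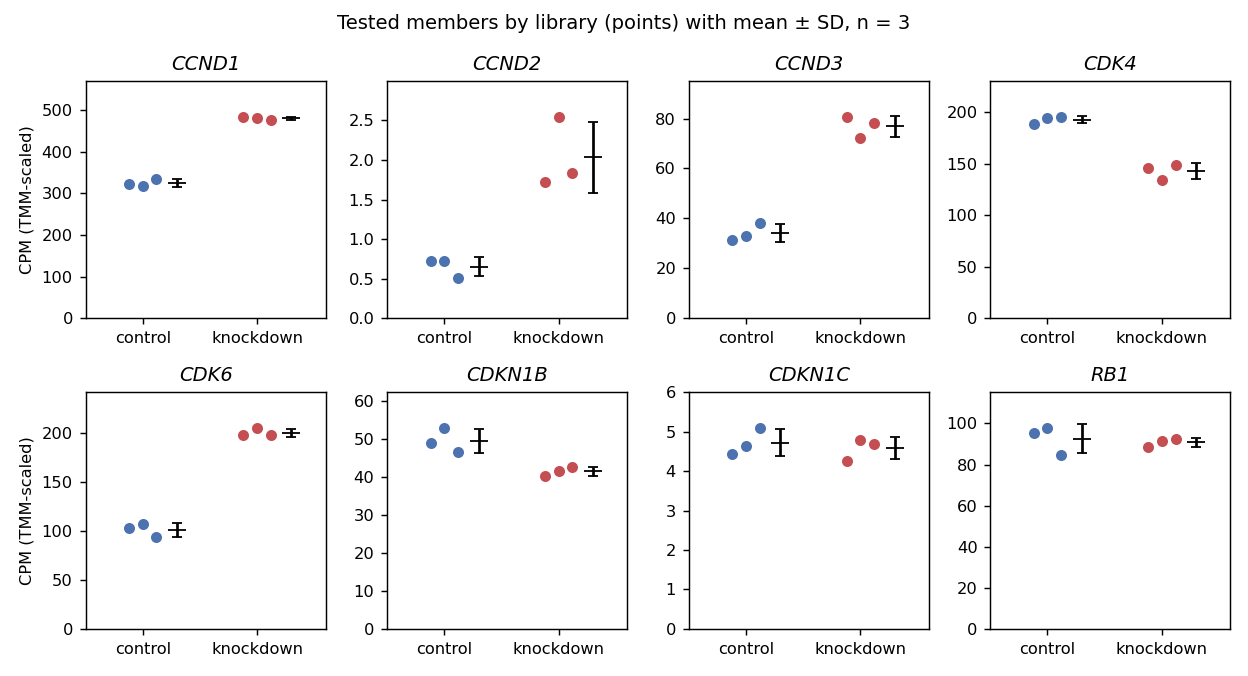
CPM (TMM-scaled, linear axes from 0) of the 8 tested members in the control (blue) and knockdown (red) libraries; each point is a library and the black marks give the mean and SD of 3. The groups do not overlap for CCND1, CCND2, CCND3, CDK4, CDK6 and CDKN1B, and overlap for CDKN1C and RB1.

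All 3 D-type cyclins were higher in the knockdown cells. CCND1 (cyclin D1; gene ID 595; GRCh38 chromosome 11, 69641156 to 69654474, plus strand) is the D-type cyclin most often amplified in carcinomas. It had 324, 317 and 335 CPM in control replicates 1 to 3, from 6578 to 8536 reads, and 484, 481 and 477 CPM in the knockdown libraries, from 13068 to 18515 reads. Every knockdown library was higher than every control, and the knockdown libraries lay closer together than the controls. The mean went from 325 ± 8.82 to 481 ± 3.22 CPM (SD, n = 3 each), a 1.48-fold rise (log2 fold change 0.56, SE 0.0390, adjusted p = 2.73e-07 in edgeR). The rise did not pass against a 1.5-fold change (adjusted p = 1 by edgeR; range over all alternatives 1.11e-32 to 1), and 32.5% of tested genes changed by more in either direction.

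CCND3 (cyclin D3; gene ID 896; chromosome 6, 41934933 to 42050035, minus strand) is the D-type cyclin best known from lymphoid cells. It stood at 31.3, 33.0 and 38.0 CPM in the controls, from 685 to 970 reads, and at 80.5, 72.3 and 78.0 CPM in the knockdown, from 1963 to 3084 reads. The lowest knockdown library was thus well above control replicate 3, the highest control. The rise was 2.26-fold (log2 fold change 1.17, SE 0.0734, adjusted p = 1.23e-07 in edgeR), and 10.2% of tested genes changed by more. The promoter table holds 3 starts for CCND3, and the counts per gene do not tell their transcripts apart.

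CCND2 (cyclin D2; gene ID 894; chromosome 12, 4273762 to 4305353, plus strand) had the lowest RPKM of the 3 cyclins. It had 18, 15 and 13 reads in the controls and 66, 69 and 55 in the knockdown libraries, or 0.719, 0.723 and 0.509 CPM against 1.72, 2.54 and 1.83 CPM. The groups did not overlap, although few reads carry the control values. The log2 fold change of 1.63 (SE 0.234, adjusted p = 9.30e-05 in edgeR) was the largest among the members. CCND2-AS1, a noncoding RNA on the opposite strand that overlaps the start of CCND2, had 9 reads in the controls and 10 in the knockdown and was below the filter.

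The 2 kinases moved in opposite directions. CDK4 (gene ID 1019; chromosome 12, 57747727 to 57752310, minus strand) had 189, 195 and 195 CPM in the controls, from 4036 to 4981 reads, and 145, 134 and 149 CPM in the knockdown, from 3633 to 5571 reads. Every knockdown library was below every control. The mean fell from 193 ± 3.44 to 143 ± 8.08 CPM (SD, n = 3 each), to 74.1% of the control level (log2 fold change -0.43, SE 0.0485, adjusted p = 1.28e-05 in edgeR). The fall did not pass against a 1.5-fold change (adjusted p = 1 by edgeR; range over all alternatives 2.59e-14 to 1).

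CDK6 (gene ID 1021; chromosome 7, 92604921 to 92836573, minus strand) is the kinase that can stand in for CDK4. It had 103, 108 and 93.7 CPM in the controls, from 2234 to 2574 reads, and 198, 205 and 198 CPM in the knockdown, from 5581 to 7588 reads. The knockdown libraries were all near their mean of 201 CPM, and the controls near 101 CPM. The rise was 1.98-fold (log2 fold change 0.99, SE 0.0534, adjusted p = 4.22e-08 in edgeR), and 14.4% of tested genes changed by more.

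Genes that overlap the kinases were looked at because the sources do not say whether reads were counted by strand. TSPAN31, a tetraspanin gene on the opposite strand whose exons share 1369 bases with those of CDK4, was higher at 16.0 ± 0.814 CPM, against 13 ± 0.489 CPM in the controls (log2 fold change 0.31, SE 0.0728, adjusted p = 0.00290 in edgeR), against the direction of CDK4. MIR6759, whose hairpin lies in an intron of CDK4, had 67 reads in the controls and 50 in the knockdown and was lower (log2 fold change -0.84, SE 0.222, adjusted p = 0.00591 in edgeR), a call lost in DESeq2 (adjusted p = 0.0666). CDK6-AS1, which overlaps the first 91 bases of CDK6, had 24 and 64 reads and was higher (log2 fold change 0.98, SE 0.348, adjusted p = 0.0269 in edgeR). That call was lost in DESeq2 (adjusted p = 0.0938) and without control replicate 1, knockdown replicate 1 or knockdown replicate 2 (edgeR adjusted p = 0.0891, 0.0953 and 0.0889; range over all alternatives 0.00480 to 0.228). The exonic bases shared by TSPAN31 and CDK4 can move reads between these partners if strand was not used. MIR6759 lies on the strand of CDK4 and shares no exonic base with it, so the strand setting does not separate them. How far any of these overlaps moved reads was not tested.

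Of the CIP/KIP inhibitors, CDKN1B was slightly lower and CDKN1C was not called. CDKN1B (p27; gene ID 1027; chromosome 12, 12717368 to 12722369, plus strand) had 48.9, 52.9 and 46.5 CPM in the controls and 40.3, 41.5 and 42.7 CPM in the knockdown, from at least 1097 reads in each library. The groups did not overlap, but the lowest control and the highest knockdown library lay close. It stood at 84.0% of the control level (log2 fold change -0.25, SE 0.0594, adjusted p = 0.00310 in edgeR), which did not pass against a 1.5-fold change (adjusted p = 1 by edgeR; range over all alternatives 3.71e-06 to 1).

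CDKN1C (p57; gene ID 1028; chromosome 11, 2883218 to 2885775, minus strand) is an imprinted gene. It had 4.43, 4.63 and 5.09 CPM in the controls and 4.26, 4.79 and 4.69 CPM in the knockdown, from 96 to 163 reads per library. The groups overlapped, with a log2 fold change of -0.05 (SE 0.104, 95% interval -0.28 to 0.18, adjusted p = 0.683 in edgeR).

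The INK4 genes CDKN2A and CDKN2B were at or near 0 in both groups. CDKN2A (gene ID 1029; chromosome 9, 21967752 to 21995324, minus strand) had 1 read in control replicate 3, 1 each in knockdown replicates 1 and 2, and 0 elsewhere. Pooled over 3 libraries this is 0.0139 CPM (not TMM-scaled) in the controls (exact 95% Poisson interval 0.000352 to 0.0774) and 0.0211 in the knockdown (0.00256 to 0.0762); the intervals cover counting error only. CDKN2B (gene ID 1030; chromosome 9, 22002903 to 22009313, minus strand) had 0 reads in all 6 libraries, which allows up to 0.0417 CPM in the controls and 0.0316 in the knockdown, counting 3 reads over each group; the exact two-sided 95% Poisson bounds are 0.0513 and 0.0389 CPM. No difference was detectable from so few reads for either gene, and no fold is given.

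Their neighbours in or near chromosome band 9p21 were read as well. CDKN2B-AS1, the noncoding RNA that overlaps both genes (21994791 to 22128142), and CDKN2A-AS1 also had 0 reads in every library. MTAP, a purine salvage enzyme gene that ends at 21941115, before CDKN2A, was transcribed at 10.8 ± 1.09 CPM in the controls and 10.2 ± 0.137 CPM in the knockdown (log2 fold change -0.09, SE 0.0877, adjusted p = 0.375 in edgeR). DMRTA1, the next gene of the list on the other side (from 22446824), had 100 reads in the controls and 235 in the knockdown and rose (log2 fold change 0.81, SE 0.147, adjusted p = 0.000522 in edgeR), though not past a 1.5-fold change (edgeR adjusted p = 0.129).

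Farther out, no common direction was seen. Of the 13 neighbours listed, 8 were tested, of which 2 rose, 2 fell and 4 were not called. Over all genes tested, 67.3% were called, 33.1% as higher and 34.2% as lower. The median log2 fold change of the 8 neighbours was 0.06, or -0.06 without control replicate 3. PLIN2, a coat protein of lipid droplets, rose (1.3, SE 0.050), while KLHL9, an adaptor of a ubiquitin ligase (-0.85, SE 0.0776), and TUSC1 (-0.79, SE 0.178) fell. TUSC1 did not pass against a 1.5-fold change (edgeR adjusted p = 0.199). FOCAD (-0.03), HACD4 (0.16) and MLLT3 (0.24) were not called, and IFNE, IFNA1, IFNB1 and ELAVL2 were below the filter.

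**Figure D2:**
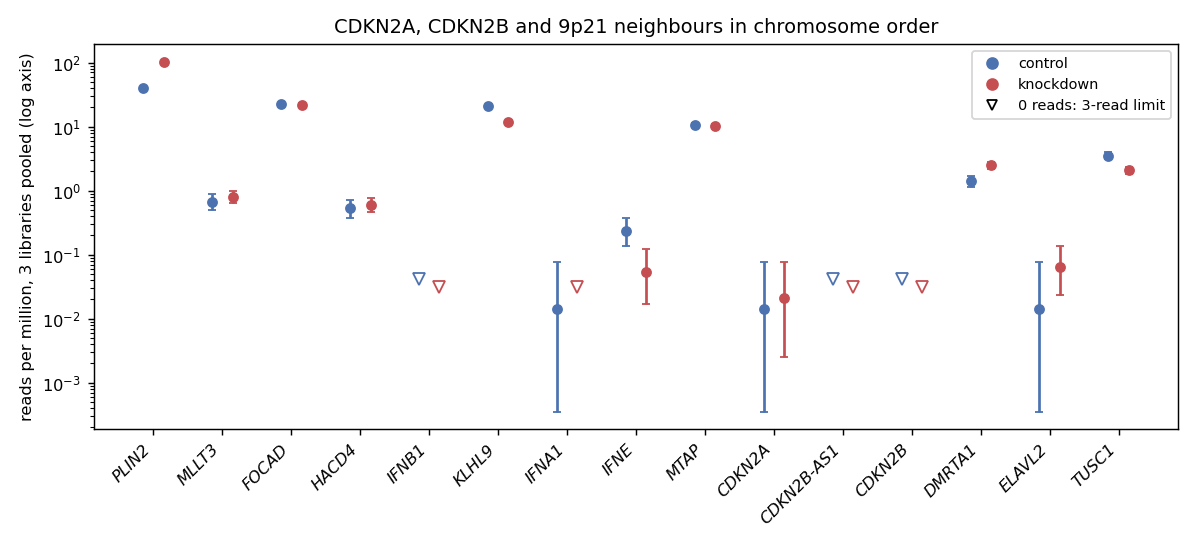
Pooled CPM of the 3 libraries of each group (log axis) of CDKN2A, CDKN2B and 13 neighbours in their order on chromosome 9, with exact 95% Poisson intervals; open triangles mark genes with 0 reads at the limit of 3 reads. CDKN2A, CDKN2B-AS1 and CDKN2B lie at or below 0.0417 CPM, between MTAP (pooled 10.7 CPM in the controls and 10.2 in the knockdown) and DMRTA1.

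RB1 (gene ID 5925; chromosome 13, 48303751 to 48481890, plus strand), the substrate of the kinases, had 95.4, 97.8 and 84.8 CPM in the controls and 88.3, 91.4 and 92.5 CPM in the knockdown. The knockdown libraries lay inside the range of the controls. The log2 fold change was -0.03 (SE 0.0569, 95% interval -0.16 to 0.10, adjusted p = 0.661 in edgeR). Without control replicate 3, the lowest control, RB1 was called lower (-0.09, adjusted p = 0.0204 in edgeR; range over all alternatives 0.0204 to 1). LPAR6, a lysophosphatidic acid receptor gene that lies inside the span of RB1 on the opposite strand and shares no exonic base with it, had 98 reads in the controls and 199 in the knockdown. It was higher (log2 fold change 0.60, SE 0.187, adjusted p = 0.0147 in edgeR), a call lost in DESeq2 (adjusted p = 0.0542), without control replicate 3 (edgeR adjusted p = 0.0643) and without knockdown replicate 3 (edgeR adjusted p = 0.0553; range over all alternatives 0.00423 to 0.751).

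Levels of different genes were compared per length, in the authors' RPKM. In the controls the order was CDK4 (93.3 ± 1.41 RPKM), CCND1 (69.8 ± 1.37), CDKN1B (19.0 ± 1.36), RB1 (18.8 ± 1.55), CCND3 (10.4 ± 0.980), CDK6 (7.88 ± 0.612), CDKN1C (2.29 ± 0.147) and CCND2 (0.0938 ± 0.0183; SD, n = 3). CDKN1B and RB1 overlapped, and every other pair of neighbours among these 8 was separate. In the knockdown CCND1 (104 ± 0.615 RPKM) came before CDK4 (69.9 ± 3.98), and CCND3 (23.9 ± 1.31) before RB1 (18.6 ± 0.460). CDKN1B (16.1 ± 0.475) and CDK6 (15.8 ± 0.322) then overlapped, with CDKN1C (2.25 ± 0.140) and CCND2 (0.296 ± 0.0647) last. Per length, CDK4 was thus the most abundant member in the controls and CCND1 in the knockdown.

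Among the D-type cyclins and the kinases the shares of the members differed between the groups. CCND1 made up 87.8%, 86.9% and 86.0% of the summed RPKM of the D-type cyclins in the controls and 80.6%, 82.1% and 80.9% in the knockdown. Its share was lower in all 3 knockdown libraries, with a difference of -5.67 percentage points (86.9% ± 0.894 to 81.2% ± 0.782, SD, n = 3 each; exact two-sided permutation p = 0.1, the smallest that 3 against 3 allows), while its own level was higher. CDK6 made up 8.04%, 8.16% and 7.16% of the summed RPKM of the 2 kinases in the controls and 18.0%, 19.8% and 17.6% in the knockdown. The difference was 10.7 percentage points (exact two-sided permutation p = 0.1). As CDK6 was higher and CDK4 lower in every knockdown library than in any control, this share had to separate the groups. Its p-value therefore adds nothing to the results of the 2 genes.

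The size of the CDK6 share depends on the length correction, since the gene model of CDK6 is 6.23 times as long as that of CDK4. In raw reads the share of CDK6 went from 34.4% ± 1.75 to 58.4% ± 1.87 (SD, n = 3 each). CDKN1C made up 10.3%, 9.96% and 12.2% of the CIP/KIP pair in the controls and 11.8%, 12.7% and 12.2% in the knockdown. These overlapped, and the difference of 1.43 percentage points gave an exact two-sided permutation p = 0.2.

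**Figure D3:**
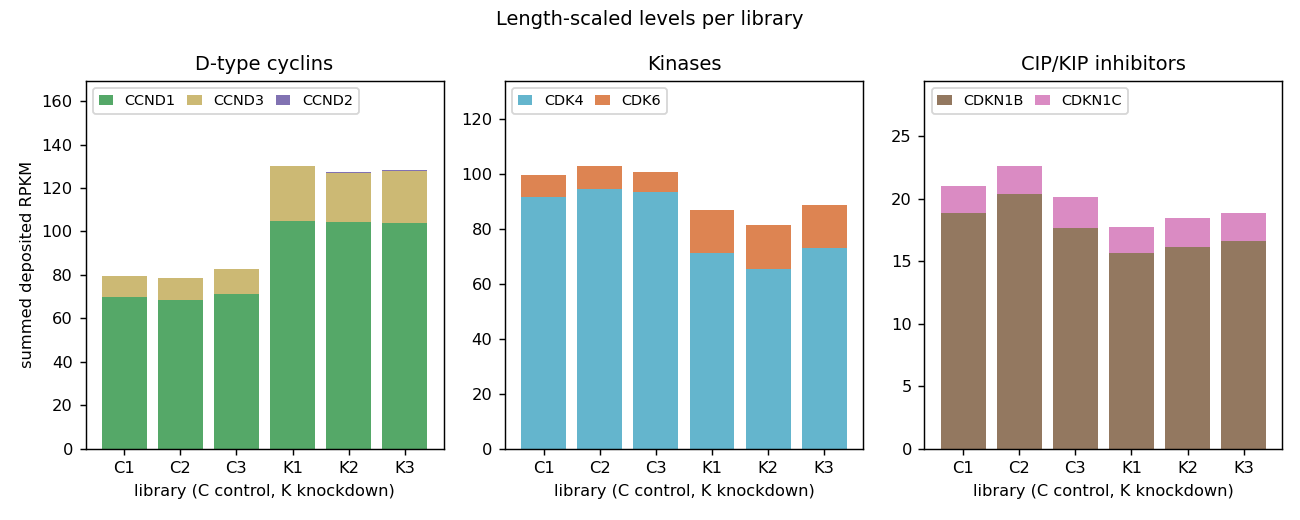
Stacked bars of the deposited RPKM in each library (C1 to C3 control, K1 to K3 knockdown) for the D-type cyclins, the kinases and the CIP/KIP inhibitors. The summed cyclins are higher in every knockdown library than in any control, and CDK6 takes a larger part of a kinase sum that is smaller per length (ratio 0.847) but larger in CPM (ratio 1.17).

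Summed per length, the D-type cyclins had 79.5, 78.6 and 82.7 RPKM in the controls and 130, 127 and 128 RPKM in the knockdown, a ratio of means of 1.6. CDK4 and CDK6 together had 99.8, 103 and 101 RPKM in the controls and 86.7, 81.6 and 88.7 RPKM in the knockdown, a ratio of 0.847. The direction of this sum depends on the length correction: in CPM, without it, the 2 kinases summed to 294 ± 7.00 in the controls and 344 ± 4.25 in the knockdown (SD, n = 3 each), a ratio of 1.17. CDKN1B and CDKN1C together had 21, 22.6 and 20.1 RPKM in the controls and 17.7, 18.5 and 18.9 RPKM in the knockdown, a ratio of 0.864. The groups did not overlap in any of the 3 sums. For the D-type cyclins this had to be so, as each of the 3 was higher in every knockdown library. The CIP/KIP sum was mostly CDKN1B, which separated the groups by itself. Of single genes tested, 71.3% did not overlap in CPM either. Per length, the summed D-type cyclins divided by the summed kinases went from 0.794 ± 0.0288 to 1.5 ± 0.0572 (SD, n = 3 each), a 1.89-fold change. In CPM this quotient went from 1.22 ± 0.0654 to 1.63 ± 0.0238, a 1.33-fold change. These are levels of RNA, and proteins were not measured.

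Among the other CDK inhibitors, 3 of 4 rose, none fell and 1 was not called, with a median log2 fold change of 0.39 beside -0.01 over all genes. The share called was 75.0% in this list, beside 67.3% of all genes tested (33.1% higher and 34.2% lower). In the lists that follow, the share called ran from 68.75% (turnover of D cyclins and p27) to 100% (S phase genes). CDKN1A, the CIP/KIP inhibitor p21, had 65.1, 60.6 and 68.3 CPM in the controls and 88.1, 84.4 and 86.5 CPM in the knockdown (log2 fold change 0.42, SE 0.0524, adjusted p = 3.27e-05 in edgeR). CDKN2D, the INK4 inhibitor p19, rose from 5.90 ± 0.870 to 11.2 ± 1.08 CPM (SD, n = 3 each; 0.92, SE 0.116), and CDKN3, a phosphatase of CDK2, rose by 0.36 (SE 0.0572). CDKN2C, the INK4 inhibitor p18 stood at 59.3 ± 6.01 and 54.5 ± 1.88 CPM (-0.12, SE 0.0693, adjusted p = 0.134 in edgeR). CDKN1A and CDKN3 did not pass against a 1.5-fold change (edgeR adjusted p = 1 for both).

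Downstream of the G1 kinases stands the cyclin E-CDK2 step. Of 8 genes tested, with another below the filter, 7 rose, none fell and 1 was not called, with a median log2 fold change of 0.45. Without control replicate 3 there were 7 that rose and 1 that fell (median 0.39). CDC25A, the phosphatase that activates CDK2, rose from 26.8 ± 0.893 to 69.5 ± 1.53 CPM (SD, n = 3 each; 1.38, SE 0.0521, adjusted p = 3.46e-09 in edgeR), and CCNE2 by 1.49 (SE 0.0825). CCNE1 (0.70, SE 0.0747), CDK2 (0.56, SE 0.0414) and CCNA2 (0.28, SE 0.0525) rose by less and, unlike the former pair, did not pass against a 1.5-fold change (edgeR adjusted p = 0.114, 1 and 1).

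The pocket proteins and E2F and DP factors went both ways: of 12 tested, 5 rose, 4 fell and 3 were not called (median 0.08). The activators E2F1 (48.0 ± 4.59 to 77.7 ± 1.66 CPM; 0.69, SE 0.0648) and E2F3 (0.48, SE 0.0543) rose, and E2F2 fell (9.39 ± 0.772 to 4.43 ± 0.401 CPM; -1.08, SE 0.103, adjusted p = 3.60e-06 in edgeR). E2F7, an atypical repressor, rose by 0.76 (SE 0.0677), and RBL2, the pocket protein p130, fell (-0.50, SE 0.0597). Of these 5, E2F2 and E2F7 passed against a 1.5-fold change.

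Of 20 S phase genes known as E2F targets, 15 rose and 5 fell (median 0.36), where 33.1% of all genes tested rose and 34.2% fell. CDC6, a loader of the replicative helicase (0.88, SE 0.0447), ORC1, an origin recognition subunit (0.89, SE 0.0589), and the checkpoint kinase CHEK1 (0.70, SE 0.0508) were higher. The helicase subunits MCM3 (-0.56, SE 0.0402) and MCM5 (-0.77, SE 0.0623) were lower. Past a 1.5-fold change there were 5 higher and 1 lower, where 19.7% of all genes tested passed in either direction. Of 8 genes of the DREAM complex, which represses cell cycle genes in quiescence, and its partners, 4 rose, 3 fell and 1 was not called (median 0.18). LIN54, its DNA-binding subunit (0.93, SE 0.0624), and MYBL2 (0.66, SE 0.0548) rose, as did the kinase DYRK1A (0.40, SE 0.0498), while MYBL1 (-0.70, SE 0.0566) and LIN52 (-0.57, SE 0.0930) fell. Only LIN54 of these passed against a 1.5-fold change.

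**Figure D4:**
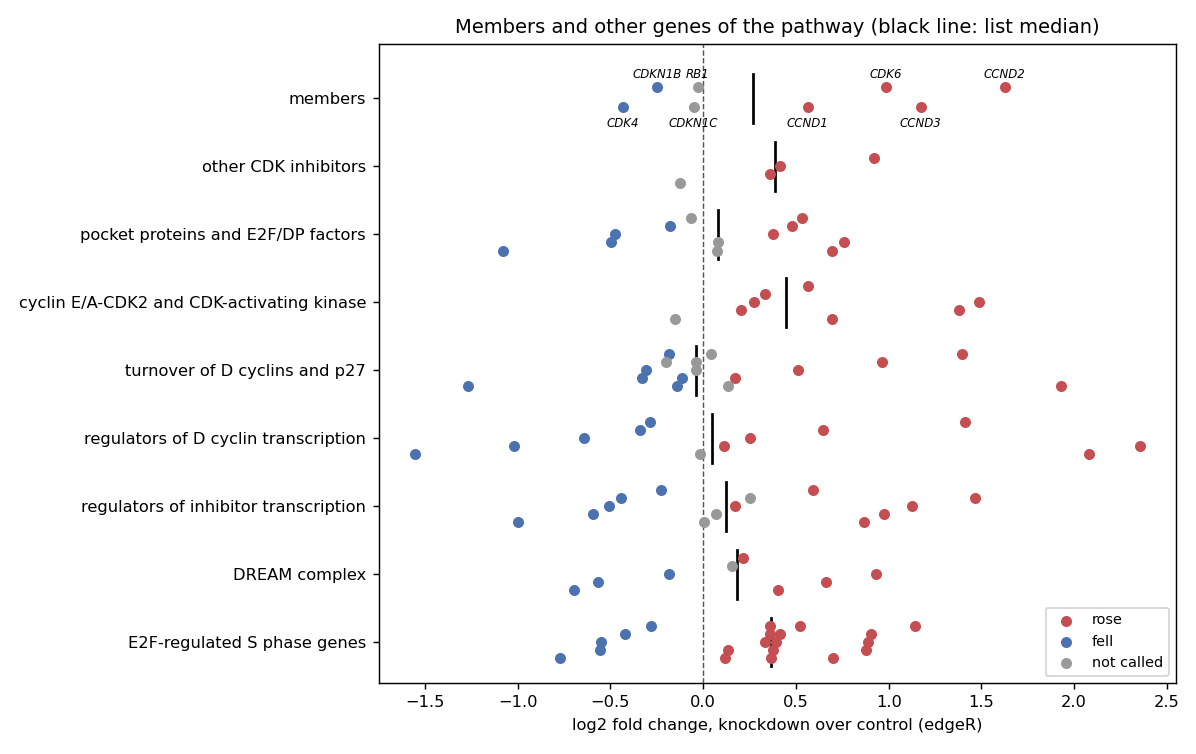
Log2 fold change (knockdown over control, edgeR) of the 8 tested members and of the tested genes of 8 pathway lists; red points rose, blue points fell, grey points were not called, and black lines are list medians. The cyclin E-CDK2 list has no gene that fell and a median of 0.45 (1 that fell and 0.39 without control replicate 3), while the turnover list is centred near 0 (-0.04).

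Genes listed under turnover of D cyclins and p27 were split, 5 up, 6 down and 5 not called of 16 (median -0.04). Whether each of them acts on these proteins in PANC-1 was not tested. FBXW7 (1.39, SE 0.0672) and BTRC (0.97, SE 0.0584), substrate receptors of SCF ubiquitin ligases, rose. USP2, a deubiquitinase of cyclin D1, rose from 2.23 ± 0.447 to 8.48 ± 0.755 CPM (1.93, SE 0.138, adjusted p = 3.58e-07 in edgeR). AMBRA1, the receptor of a ligase for D-type cyclins, rose by 0.51 (SE 0.0513; adjusted p = 1 by edgeR against a 1.5-fold change), and FBXO4, described as another such receptor, fell from 6.83 ± 0.0471 to 2.82 ± 0.250 CPM (-1.27, SE 0.102).

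Of 12 transcription factors known to act on D-type cyclin genes, 6 rose, 5 fell and 1 was not called (median 0.05). ETS2 fell from 358 ± 7.24 to 122 ± 3.10 CPM (-1.55, SE 0.0413, adjusted p = 3.00e-10 in edgeR). SP1 fell from 141 ± 3.70 to 69.7 ± 2.15 CPM (-1.02, SE 0.0450). It binds GC boxes such as those in the printed windows of CDK4, which fell, and of CDK6, which rose. MYC, which binds E-boxes, had 102, 96.9 and 105 CPM in the controls and 64.7, 66.4 and 63.7 CPM in the knockdown (-0.64, SE 0.0474, adjusted p = 4.63e-07 in edgeR; 0.185 against a 1.5-fold change). EGR1 (2.08, SE 0.136) and TCF7L2, a partner of beta-catenin (0.64, SE 0.0461; edgeR adjusted p = 0.161 against a 1.5-fold change), rose. Whether any of these bears on the CDK4 promoter or another member was not tested.

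Of 14 genes known to act on the inhibitor genes, 6 rose, 5 fell and 3 were not called (median 0.12). FOXO1, an activator of CDKN1B, rose from 2.15 ± 0.0266 to 5.93 ± 0.194 CPM (1.46, SE 0.105), TBX3, a repressor of CDKN2A, rose by 1.12 (SE 0.0639), and BMI1, a Polycomb repressor of the same locus, by 0.59 (SE 0.0622). SMAD2, a mediator of TGF-beta signals, fell from 114 ± 4.23 to 57.3 ± 0.153 CPM (-1.0, SE 0.0455). BMI1 did not pass against a 1.5-fold change (edgeR adjusted p = 0.702). CDKN2A itself had 1 read in the controls and 2 in the knockdown. Whether any of these genes bears on the inhibitor members was not tested.

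Over all 6 libraries CCND1 had the highest mean RPKM among the members, so the profiles most like its own were looked up. Likeness was the Euclidean distance over the 6 libraries between log2 CPM values centred on the control mean, among 12367 genes. The nearest were AURKB, a mitotic kinase (distance 0.0353; log2 fold change 0.55), ZFAND3 (0.0411; 0.57) and TMED4 (0.050; 0.58). With 6 libraries in 2 groups, this measure mostly follows the size of the group difference.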

How the data were processed

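Gene counts from 3 knockdown and 3 control libraries of PANC-1 were compared. Per the submitters' processing notes, reads were aligned with GSNAP to GRCh38 (its version is not stated). Per the file headers, the authors deposited, for each gene model, the count of uniquely aligned reads and an RPKM value adjusted by size factors. How these factors were made, the strand setting and the annotation release are not stated there or in the labels. In each library the ratio of count to RPKM was a constant times a factor per gene, so the RPKM differ from the counts by a length scale and a scaling of each library.

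Symbols and spans came from RefSeq genes of GRCh38.p14 (27814 of 30727 IDs matched), and strands and exons from GENCODE 29. IDs without a symbol, with 0.323% to 0.338% of reads, were kept in the fit. Replicates were numbered in accession order only to name them, and no pair of libraries was identical. Counts were filtered with filterByExpr (minimum count 10, minimum total 15; 15190 genes left), scaled by TMM and tested two-sided with edgeR 4.0.16 (glmQLFit, glmQLFTest) in R 4.3.3, with Benjamini-Hochberg adjustment over all genes and a threshold of 0.05. Intervals of fold changes use the degrees of freedom of that fit. Family shares were tested by exact permutation over libraries (scipy 1.17.1). The fits were tested on simulated data. Alternatives were other scalings, filters and tests (DESeq2 1.42.0, limma-voom of limma 3.58.1, edgeR's glmTreat against a 1.5-fold change), thinning to 20863594 reads per library, leaving out each library, shares of raw reads, and sums in CPM.

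The members and the gene lists were chosen with earlier results of these data known. Named were the members, KMT5C, overlapping genes, 9p21 neighbours, the other CDK inhibitors, up to 5 genes of smallest adjusted p per other list, and the 3 profiles nearest to CCND1; 1 gene that this rule selects is not reported here. Lists of duct, neuron, astrocyte, leukocyte, and fibroblast and endothelial markers checked the cell type.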

Additional observations from a re-analysis of the deposited data

How the results depend on the processing

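The 4 rises and 2 falls among the members kept their direction in all 15 alternatives that could test them. CDKN1C and RB1 ranged from -0.09 to 0.01 on the log2 scale. Against a 1.5-fold change, a stricter question by construction, 2998 genes passed in place of 10216, the members that fell dropped from 2 to 0 and those that rose from 4 to 3. When a mean log2 CPM of 1 or more was required, CCND2 was not tested. Leaving out 1 library gave from 9184 to 11277 genes called; the members that rose stayed at 4 and those that fell at 2 to 3, RB1 being the addition without control replicate 3. In CPM without length correction, an alternative chosen after seeing the data, the ratio of the summed kinases reversed from 0.847 to 1.17, that of the D-type cyclins was 1.55 and that of cyclins per kinase 1.33. In raw reads the CCND1 share differed by -4.46 percentage points, against -5.67 per length, and the CDK6 share by 24.0, against 10.7. Without 1 library at a time the differences ran from -6.13 to -5.24 (CCND1), 9.99 to 11.1 (CDK6), 1.01 to 2.11 (CDKN1C) percentage points. Without control replicate 3 the cyclin E-CDK2 list had 7 up and 1 down, and the pocket protein and E2F list 5 up and 5 down. Over the scalings the median of all genes lay between -0.01 and 0.01. Depth limits CCND2 (13 to 18 control reads) and CDK6-AS1, and both INK4 members had too few reads for a test. No paired analysis was possible because the labels carry no replicate numbers.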
